A study of Mus musculus with 8 samples.

Results

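Mpo, Elane, Prtn3, Ctsg and Ms4a3 are the genes by which granulocyte progenitors filling their primary granules are usually recognised. The 5 genes were chosen by their symbols, and all 5 were found by Ensembl identifier among the 16119 genes of a count table of common dendritic cell progenitors (CDPs). All 5 passed the filter on low counts, as did 15837 of the 16119 genes. RNA was sequenced from CDPs flow-sorted from the bone marrow (BM) of wild-type C57BL/6 male mice (C57BL/6J in the methods), at about 50000 cells per library. CDPs were gated as lineage-negative cells positive for CD115 and Flt3, with intermediate c-Kit and low Sca1. The mice received a high fat diet (HFD, 60 kcal% fat) and are labelled DIO, or received control chow (CF, 10 kcal% fat) and are labelled as DIO controls matched in age and diet. The labels give 16 weeks of diet for HFD and call CF matched, whereas the methods give 16 weeks as the age at purchase. The results of the study give feeding for up to 16 weeks, and the age at sorting is not stated. The labels name no transgene, deletion or allergen for either diet. Each diet had 4 libraries, described in the methods as independent replicates isolated in parallel. Whether a replicate held cells of 1 mouse or of several is not given in the sources used here, so p-values measure the spread between these libraries.

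Primary (azurophil) granules are the first granules to form in a developing neutrophil. They are filled at the promyelocyte stage, when the genes for their contents are transcribed strongly, and transcription of these genes is shut down as the cell matures and turns to secondary and tertiary granules. Myeloperoxidase, encoded by Mpo, makes hypochlorous acid from hydrogen peroxide and chloride. Elane (neutrophil elastase), Prtn3 (proteinase 3) and Ctsg (cathepsin G) encode serine proteases that are stored in active form beside it. Ms4a3 encodes a membrane protein of the MS4A family and is used as a marker of granulocyte-monocyte progenitors and their progeny. CDPs give rise to dendritic cells (DCs), and the gate used here was drawn to hold DC-restricted progenitors, not granulocyte progenitors.

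The 5 genes lie at 4 places in the mouse genome (GRCm38, GENCODE vM21). Prtn3 (ENSMUSG00000057729, chr10:79874476-79883174) and Elane (ENSMUSG00000020125, chr10:79886247-79888215) are neighbours on the plus strand with 3072 bases between them. Mpo (ENSMUSG00000009350, chr11:87793581-87804413) is on the plus strand. Ctsg (ENSMUSG00000040314, chr14:56099881-56102574) and Ms4a3 (ENSMUSG00000024681, chr19:11629496-11640851) are on the minus strand. Elane, Ctsg and Ms4a3 overlap no other gene and shared 0 stretches of 75 bases, the length of a read, with other annotated transcripts. Mpo overlaps the antisense gene Gm11505, which held between 2.26% and 5.21% as many counts as Mpo in the same library. Prtn3 overlaps the start of Plppr3, on the opposite strand, by 159 bases, and Plppr3 held between 28.4% and 136% as many counts as Prtn3. Since it is not stated whether counting used strand, reads of these overlaps cannot be assigned with certainty, and 6.94% of the 75-base stretches of Mpo and 5.06% of those of Prtn3 were shared with the overlapping gene.

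The promoters of the 5 genes are shown as a description of their sequence, and a part of these sequences in the levels was not tested. They come from RefSeq (GRCm38.p6), where all 5 symbols matched 1 entry each of a window from 250 bases before to 50 bases after the gene start. The letters GAGGAA, a core of sites bound by PU.1, the ETS factor that myeloid progenitors require, were searched on both strands and occurred on the strand of the gene in 5 of 5 windows. Of the 32851 promoter windows of that length, 15.65% held these letters on the strand of the gene and 28.3% on either strand. The capitals mark GAGGAA, 5′ to 3′ on the strand of the gene. For Mpo (chr11:87793534-87793783, plus strand), Elane (chr10:79886062-79886311, plus strand), Prtn3 (chr10:79879417-79879666, plus strand) and Ctsg (chr14:56102575-56102824, minus strand) the 250 bases before the start are printed. For Ms4a3 (chr19:11640802-11640831, minus strand), where the letters lie after the start, the last 30 bases of the window are printed.
Mpo: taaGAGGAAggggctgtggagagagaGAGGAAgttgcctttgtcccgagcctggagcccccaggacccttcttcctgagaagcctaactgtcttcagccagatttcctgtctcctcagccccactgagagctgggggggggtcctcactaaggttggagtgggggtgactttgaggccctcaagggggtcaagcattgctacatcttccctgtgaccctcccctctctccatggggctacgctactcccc
Elane: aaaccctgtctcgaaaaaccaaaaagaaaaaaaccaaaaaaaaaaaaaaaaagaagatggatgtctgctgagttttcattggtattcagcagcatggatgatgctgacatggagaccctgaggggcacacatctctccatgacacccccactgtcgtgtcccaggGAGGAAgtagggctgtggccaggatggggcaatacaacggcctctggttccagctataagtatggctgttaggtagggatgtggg
Prtn3: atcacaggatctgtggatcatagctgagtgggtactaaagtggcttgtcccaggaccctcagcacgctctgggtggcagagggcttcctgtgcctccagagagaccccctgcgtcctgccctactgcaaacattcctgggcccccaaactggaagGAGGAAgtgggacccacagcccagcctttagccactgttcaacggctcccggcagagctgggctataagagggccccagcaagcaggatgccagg
Ctsg: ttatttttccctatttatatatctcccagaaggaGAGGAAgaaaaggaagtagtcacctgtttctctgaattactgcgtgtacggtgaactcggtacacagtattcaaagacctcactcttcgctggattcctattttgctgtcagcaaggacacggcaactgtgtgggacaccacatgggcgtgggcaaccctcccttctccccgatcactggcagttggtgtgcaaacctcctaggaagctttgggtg
Ms4a3: tccactggacttgctGAGGAAttgcacaaa
The matches began at -247 and -224 in Mpo, -85 in Elane, -95 in Prtn3, -216 in Ctsg and 35 in Ms4a3, counted from the first transcribed base as 0. The stretch of Ms4a3 also holds TTGCACAA, a match to the C/EBP letters TTGCNNAA, directly after GAGGAA and without overlap. C/EBP letters were found in 1 of the 5 windows and in 10.8% of all windows. On either strand, the RUNX letters TGTGGT were present in 1 of 5 (Ctsg, 16.8% of all) and the MYB letters AACNG in 4 of 5 (80.3% of all). The GFI1 letters AATCNC were present in 0 of 5 (33.2% of all) and TATAAA in 1 of 5 (13.6% of all), on either strand. The match to TATAAA was in Ctsg, at -237 on the opposite strand, and near matches to these letters were not searched. These matches describe the windows printed and no binding was measured. The RefSeq start of Prtn3 lies inside the longer GENCODE model of that gene.

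Total counts were 28203651 to 48409689 per library, and the 5 genes together held 8819 to 36080 of them, or 0.058% to 0.281% of the counts of protein-coding genes. Values below are CPM, the counts of a gene relative to the total of its library, scaled by TMM, which estimates a library's scale from genes that vary little. In marker genes of late neutrophils, HFD replicate 1 was the highest of all libraries and CF replicate 1 the lowest of CF, so results are also given without them. The sort markers were present in every library. Kit had 34.2 to 53.6 CPM and Csf1r, which encodes CD115, had 79.4 to 133 CPM. Ly6a, which encodes Sca1, had 1.37 to 3.25 CPM. Flt3 had 88.8 CPM in HFD replicate 1 and 227 to 378 CPM in the other 7 libraries.

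None of the 5 genes passed the test between the diets, and for each of them the libraries of HFD overlapped those of CF. HFD replicate 1 held the highest level of all 8 libraries for 5 of 5 genes, and the lowest was in HFD replicate 4 for 4 genes and in HFD replicate 3 for Prtn3. The range of HFD thus enclosed that of CF for each gene. Over all 15837 genes tested, 26.5% were highest in HFD replicate 1 and 13.6% were highest there and lowest in HFD replicate 3 or 4.

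Mpo, the peroxidase, was the most abundant of the 5. In HFD it had 717, 267, 187 and 154 CPM in replicates 1 to 4, and in CF 235, 468, 476 and 321 CPM. HFD replicate 1 was above all CF libraries, HFD replicates 3 and 4 were below all of them, and HFD replicate 2 lay among them. The means were 331 ± 262 CPM in HFD and 375 ± 118 CPM in CF (SD, n = 4), and the log2 fold change was -0.18 (SE 0.49, edgeR quasi-likelihood test, adjusted p = 0.97). The 95% interval, -1.29 to 0.94, ran from 0.408-fold to 1.92-fold.

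Elane, neutrophil elastase, varied more. It had 264.0, 62.9, 22.4 and 17.2 CPM in HFD replicates 1 to 4 and 32.6, 111, 119 and 63.4 CPM in CF. The highest HFD library had 15.4 times the level of the lowest, against 3.65 times between the highest and lowest CF library. HFD replicate 2 was level with CF replicate 4, and HFD replicates 3 and 4 were below all CF libraries. The means were 91.6 ± 117 CPM in HFD and 81.5 ± 40.8 CPM in CF (SD, n = 4), and edgeR gave 0.17 for the log2 fold change (SE 0.84, adjusted p = 0.98). The interval of -1.75 to 2.09 ran from 0.296-fold to 4.26-fold.

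Prtn3, proteinase 3, had 67.2, 33.9, 19.7 and 22.2 CPM in HFD replicates 1 to 4 and 24.9, 43.1, 62.8 and 41.6 CPM in CF. Its span was the narrowest of the 5 genes, 3.42 times from lowest to highest. HFD replicate 1 was again above every CF library, with CF replicate 3 just below it. The means were 35.8 ± 21.9 CPM in HFD and 43.1 ± 15.5 CPM in CF (SD, n = 4), and the log2 fold change was -0.27 (SE 0.42, 95% interval -1.23 to 0.69, edgeR, adjusted p = 0.93).

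Ctsg, cathepsin G, had 71.3, 25.5, 19.7 and 17.8 CPM in HFD replicates 1 to 4 and 27.4, 36.0, 41.4 and 27.5 CPM in CF. Here HFD replicates 2 to 4 were all below the lowest CF library, and HFD replicate 1 was above the highest. The means of 33.6 ± 25.4 CPM in HFD and 33.1 ± 6.88 CPM in CF (SD, n = 4) differed by less than the spread between replicates, and the log2 fold change was 0.022 (SE 0.44, 95% interval -0.97 to 1.02, edgeR, adjusted p = 1.0).

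Ms4a3 was the lowest of the 5, with 38.0, 8.84, 3.15 and 2.35 CPM in HFD replicates 1 to 4 and 5.09, 13, 15.7 and 7.36 CPM in CF. Its span of 16.1 times was the widest, and it followed that of Elane library by library. Even its smallest count, 97 reads in HFD replicate 4, had a counting error of 10.2%, which was smaller than the differences between libraries. The means were 13.1 ± 16.8 CPM in HFD and 10.3 ± 4.92 CPM in CF (SD, n = 4), and the log2 fold change was 0.34 (SE 0.84, 95% interval -1.57 to 2.25, edgeR, adjusted p = 0.96).

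**Figure D1:**
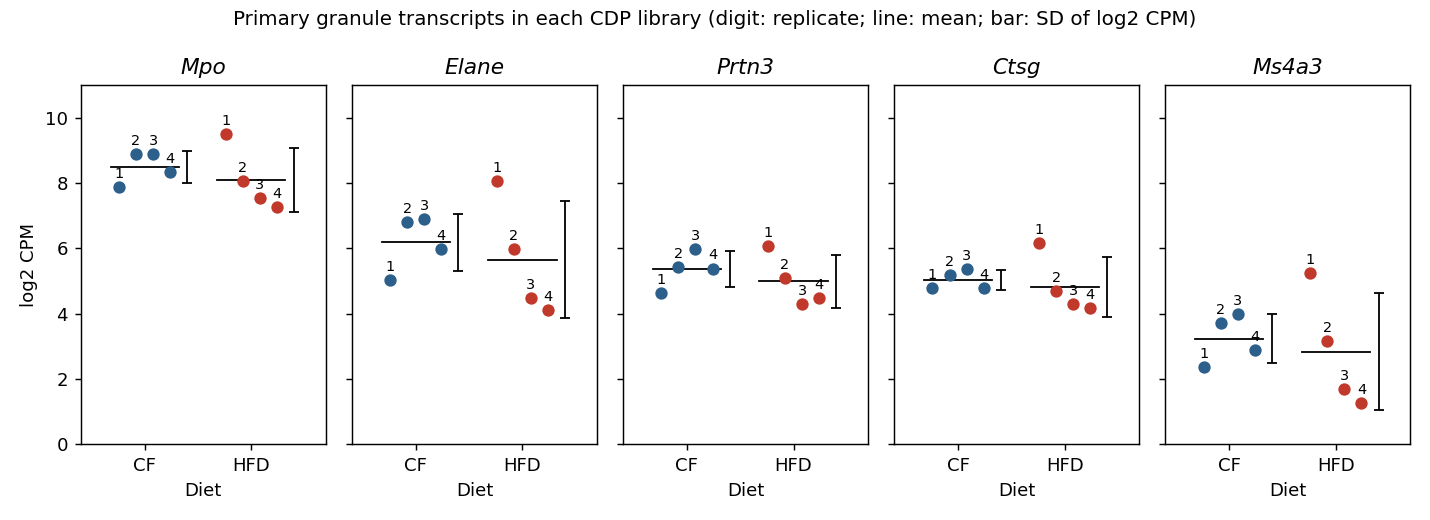
Log2 CPM (y axis) of the 5 primary granule genes in the 4 CF and 4 HFD libraries, 1 panel per gene and 1 point per library, with the replicate number above it. Lines are means and bars the SD of log2 CPM; HFD replicate 1 is the highest point in each panel and HFD replicates 3 and 4 are the lowest 2.

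With 8 libraries, 0 of 5 genes had an adjusted p below 0.05, where 0.423% of all tested genes did, and 0 of 5 had an unadjusted p below that, where 8.56% of all did. DESeq2 and limma voom also called 0 of 5, with 3.58% and 0.442% of all genes called. With sample quality weights in limma voom, 5 of 5 were lower in HFD and 0 were called, while 2 of 5 had an unadjusted p below 0.05, as did 8.32% of all genes in that direction. These were Mpo at -0.82 and Prtn3 at -0.80 on the log2 scale (limma, adjusted p = 0.32 and 0.34). The median log2 fold change of the 5 genes was 0.022, beside 0.055 over all genes tested. None of the 5 had diets that did not overlap, against 6.16% of all genes. On the log2 scale, which gives the single high library less weight, the mean of HFD was below that of CF by 0.40 for Mpo, 0.52 for Elane, 0.37 for Prtn3, 0.20 for Ctsg and 0.40 for Ms4a3. Exact two-sided permutation tests over the 70 ways to split the libraries gave p = 0.49, 0.63, 0.46, 0.71 and 0.74, where the smallest p possible was 0.029. For Elane, Ctsg and Ms4a3 this difference and the edgeR fold change had opposite signs. For every gene, 1 of 4 HFD libraries was above the CF mean.

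The size of the diet contrast depended most on HFD replicate 1, and signs also turned without some other libraries. Without HFD replicate 1, the HFD means were 203 ± 57.9 CPM for Mpo, 34.2 ± 25.0 for Elane, 25.3 ± 7.62 for Prtn3, 21.0 ± 4.03 for Ctsg and 4.78 ± 3.54 for Ms4a3 (SD, n = 3). The log2 fold changes were then -0.89 for Mpo, -1.26 for Elane, -0.77 for Prtn3, -0.65 for Ctsg and -1.11 for Ms4a3 (edgeR, adjusted p = 0.19, 0.38, 0.30, 0.14 and 0.40). In that comparison 0 of 5 genes were called, with 1.26% of all genes called, and 3 of 5 (Mpo, Prtn3 and Ctsg) were lower in HFD at an unadjusted p below 0.05, with 9.76% of all genes. With CF replicate 1 left out as well, the values were -1.06 for Mpo, -1.52 for Elane, -0.96 for Prtn3, -0.73 for Ctsg and -1.34 for Ms4a3 (edgeR, adjusted p = 0.064, 0.23, 0.085, 0.096 and 0.28). Again 0 of 5 were called (2.45% of all genes), while 5 of 5 were lower at an unadjusted p below 0.05 (10.6% of all) and 4 of 5, all but Ms4a3, had 3 HFD libraries below all 3 CF libraries (11.8% of all). The libraries left out were the highest of HFD and the lowest of CF for each of the 5 genes, so leaving them out lowers HFD against CF for all of them by construction.

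**Figure D2:**
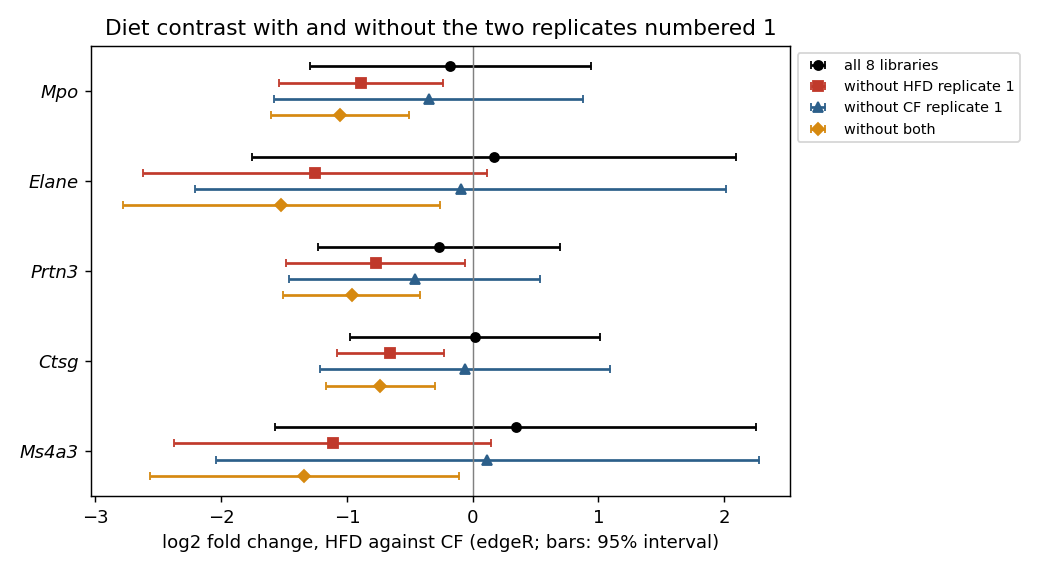
Log2 fold change of HFD against CF (x axis, edgeR, bars are 95% intervals) for each gene with all 8 libraries, without HFD replicate 1, without CF replicate 1 and without both. With 8 libraries all 5 intervals span 0 and the estimates lie between -0.27 and 0.34, and without both libraries they lie between -1.52 and -0.73.

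Compared per kilobase of exon, Mpo was the highest, with a median of 85.8 CPM per kb over 8 libraries (45.1 to 210), followed by Elane at 64.2 (17.5 to 268), Ctsg at 26.6 (17.2 to 69.1), Prtn3 at 21.8 (11.3 to 38.8) and Ms4a3 at 4.30 (1.25 to 20.2). The ranges of neighbours in this order overlapped across libraries. Within libraries the order held more closely, since Elane was above Ctsg, Ctsg above Prtn3 and Prtn3 above Ms4a3 in 8 of 8 libraries. Mpo was above Elane in 7 of 8, and HFD replicate 1 was the exception. The exon length of Prtn3, 1732 bases, includes upstream exons of its GENCODE model, and that of Ctsg is 1033 bases. The order of Ctsg and Prtn3 depends on these lengths. In CPM not divided by length, Prtn3 was above Ctsg in CF replicate 3 (62.8 against 41.4) and below it in CF replicate 1 (24.9 against 27.4).

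Each gene varied more between libraries than most genes did. The difference between the highest and lowest library was 2.22 log2 units for Mpo, 3.94 for Elane, 1.77 for Prtn3, 2.00 for Ctsg and 3.98 for Ms4a3, beside a median of 0.95 over all genes tested. The counting error was smaller, at most 1.25% for Mpo, 3.76% for Elane, 3.65% for Prtn3, 3.69% for Ctsg and 10.2% for Ms4a3 of the count in any library. Within HFD the coefficient of variation was between 61.2% for Prtn3 and 129% for Ms4a3, and within CF it was between 20.8% for Ctsg and 50.1% for Elane. CF replicate 1 was the lowest CF library for all 5 genes, though for Ctsg it was level with CF replicate 4.

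**Figure D3:**
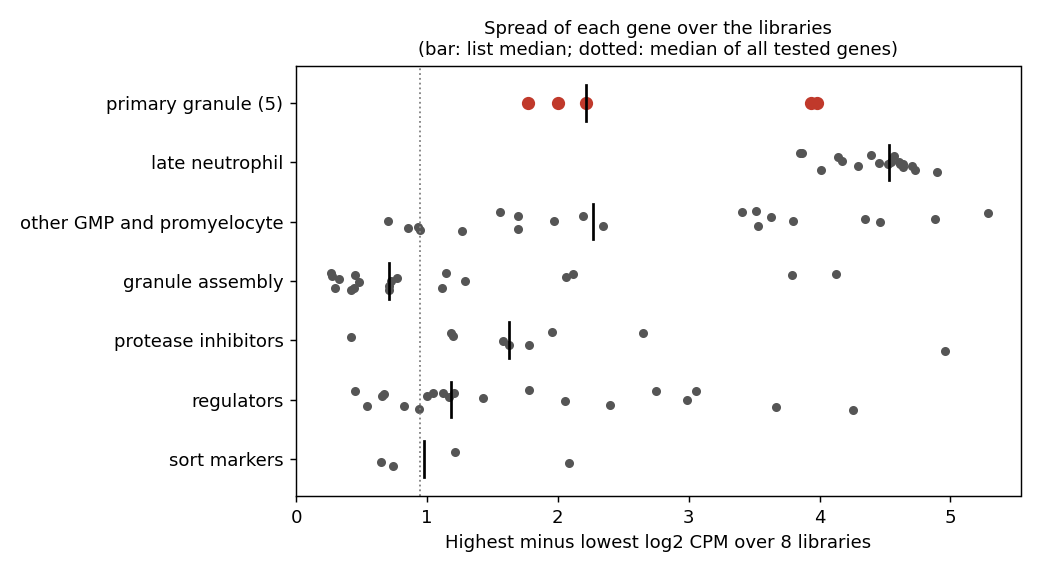
Difference between the highest and the lowest library in log2 CPM (x axis) for the 5 primary granule genes (red) and for genes of 6 other lists (grey, 1 point per gene, vertical jitter without meaning). Black bars are medians of each list and the dotted line, at 0.95, is the median of all tested genes; Elane and Ms4a3 lie near 4, close to the late neutrophil genes.

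The 5 genes did not vary by the same factor, and their proportions changed with the level. Elane made up 22.8% of the summed counts of the 5 genes in HFD replicate 1, where the sum was highest, and 8.03% in HFD replicate 4, where it was lowest. Mpo made up 62.0% in HFD replicate 1 and 74.2% in HFD replicate 3. Ms4a3 made up 3.28% in HFD replicate 1 and 1.10% in HFD replicate 4. In CF the share of Elane was 10.0%, 16.5%, 16.6% and 13.8% in replicates 1 to 4. The share of Ctsg was 6.16% to 8.32% in HFD and 5.36% to 8.44% in CF. The count of Elane for each count of Mpo was 0.368, 0.236, 0.120 and 0.111 in HFD replicates 1 to 4 and 0.139, 0.237, 0.250 and 0.198 in CF, and the diets overlapped.

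**Figure D4:**
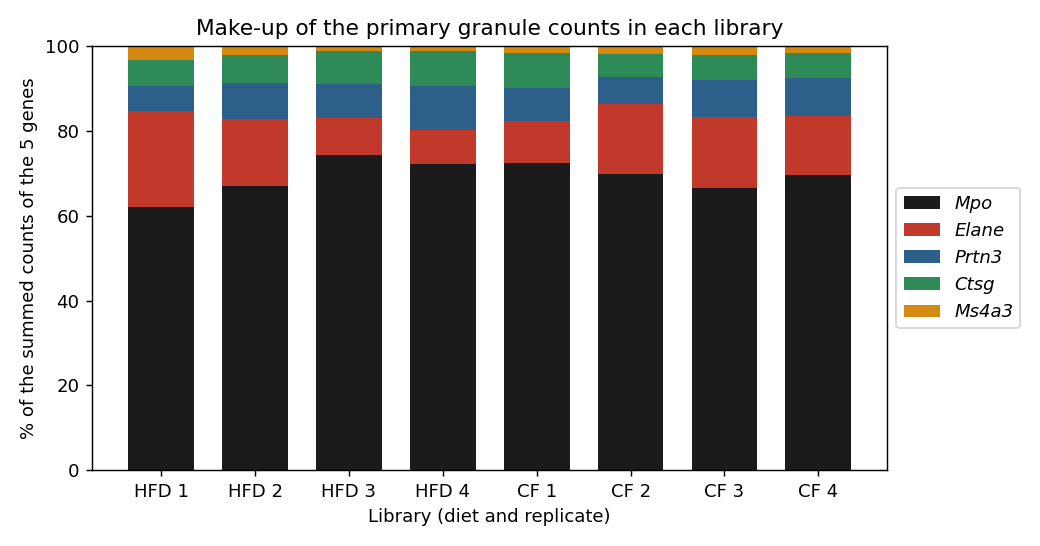
Share of each gene (y axis, percent) in the summed counts of the 5 primary granule genes in each library (x axis). The Elane segment shrinks from 22.8% in HFD replicate 1 to 8.03% in HFD replicate 4, while Mpo stays between 62.0% and 74.2%.

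Since library scaling cancels in a ratio of 2 genes of the same library, the 10 ratios between the genes were compared directly. Elane and Ms4a3 kept the closest ratio, with a log2 ratio of CPM of 2.83 ± 0.029 in HFD and 2.95 ± 0.20 in CF (SD, n = 4), and its range was 0.43 over 8 libraries while Elane moved by 3.94 and Ms4a3 by 3.98. The ratio of Mpo to Ctsg moved by 0.60 and that of Mpo to Prtn3 by 0.64. The ratio of Elane to its chromosomal neighbour Prtn3 moved by 2.35, or 5.08-fold, and that of Prtn3 to Ms4a3 by 2.41. All 10 ratios overlapped between the diets.

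Log2 CPM of each pair correlated over the 8 libraries, from r = 0.90 for Prtn3 and Ctsg to r = 0.99 for Elane and Ms4a3, with Spearman's rho of 0.93 to 1.0. After the mean of each diet was subtracted, r was 0.90 to 0.99. Without the 2 libraries farthest from the median, which included HFD replicate 1 for each pair, r was 0.88 to 0.99. Both genes of a pair were read from the same library, with its depth and cell make-up in common, so these values are a description of 8 libraries.

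The levels of the 5 genes followed those of late neutrophil genes, a list of 18 genes of secondary and tertiary granules and mature neutrophils. S100a8, a calcium-binding protein abundant in neutrophils, had 5155 CPM in HFD replicate 1 and 245 to 901 CPM in the other HFD libraries, beside 539 to 1778 CPM in CF. Ngp, a secondary granule protein, had 4383 CPM in HFD replicate 1 and 180 to 818 CPM in the other HFD libraries. The summed list had 21142, 3686, 1326 and 992 CPM in HFD replicates 1 to 4 and 2019, 6777, 6302 and 6162 CPM in CF. HFD replicate 1 was highest for 18 of 18 genes and HFD replicate 4 lowest for 17 of 18, beside 26.5% and 17.7% of all genes tested. Of the 18, 0 were below 1 CPM in all libraries. In bulk RNA, fewer cells of a type and less RNA per cell cannot be told apart. The part of granulocytic cells within the gate in the levels of the 5 genes was not tested.

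Against the mean log2 CPM of this list, r over 8 libraries was 0.97 for Mpo, 0.98 for Elane, 0.94 for Prtn3, 0.94 for Ctsg and 0.97 for Ms4a3. The slopes were below 1, at 0.90 for Elane, 0.86 for Ms4a3, 0.51 for Mpo, 0.43 for Prtn3 and 0.42 for Ctsg. The summed counts of the 5 genes were accordingly smallest against the late genes where both were highest. For each late neutrophil count there were 0.055, 0.108, 0.190 and 0.216 counts of the 5 genes in HFD replicates 1 to 4, and 0.161, 0.099, 0.113 and 0.075 in CF. Their log2 ratio was -3.00 ± 0.90 in HFD and -3.21 ± 0.46 in CF (SD, n = 4), a difference of 0.21 that was smaller than the spread between replicates. It was 0.80 with both replicates numbered 1 left out.

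**Figure D5:**
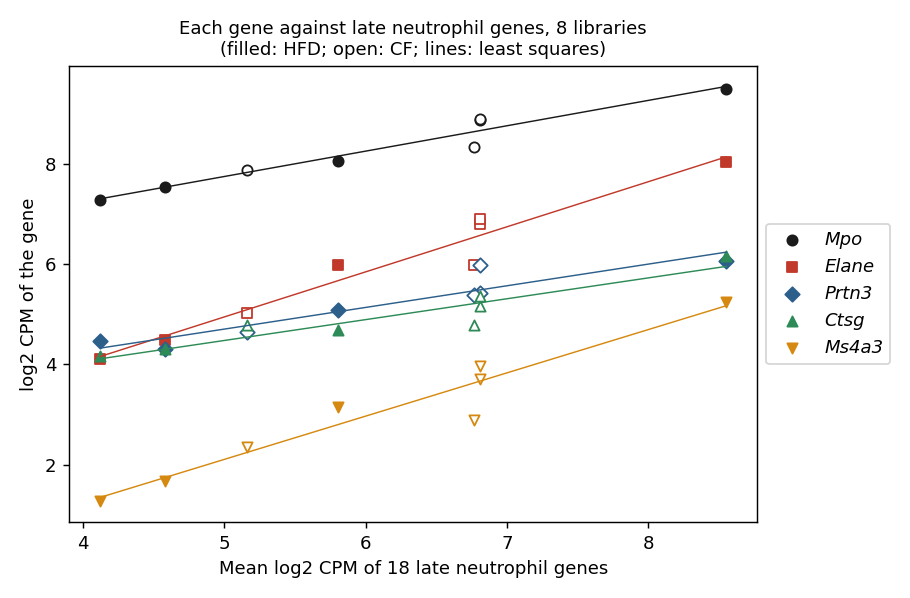
Log2 CPM of each primary granule gene (y axis) against the mean log2 CPM of 18 late neutrophil genes (x axis) in 8 libraries, filled for HFD and open for CF, with least squares lines. All 5 genes climb with the late neutrophil genes, with slopes from 0.42 for Ctsg to 0.90 for Elane, and the CF points lie among the HFD points.

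With the late neutrophil mean as a covariate beside the diet, the log2 fold changes were -0.11 for Mpo (SE 0.14), 0.013 for Elane (SE 0.19), -0.13 for Prtn3 (SE 0.16), 0.044 for Ctsg (SE 0.15) and 0.11 for Ms4a3 (SE 0.22), with edgeR adjusted p of 0.80 to 0.99. The SE of Elane was thus 0.19 in place of 0.84, and its 95% interval was -0.42 to 0.44. That of Mpo was -0.42 to 0.21. The covariate was measured in the same libraries and no cause is drawn from it.

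Genes that act with the primary granule proteins were not called either. Of 19 tested genes of granule assembly and processing, 11 had fitted changes above 0 and 8 below, and 0 were called (median log2 fold change 0.050). The highest library was HFD replicate 1 for 10 of 19, beside 26.5% of all genes tested. Of the 19, r with the mean of the 5 genes was above 0 for 14 and below 0 for 5. Ctsc, the dipeptidyl peptidase that activates elastase, proteinase 3 and cathepsin G, had 38.0 ± 15.2 CPM in HFD and 40.9 ± 10.2 CPM in CF (SD, n = 4; log2 fold change -0.10, edgeR, adjusted p = 0.97). Its highest library was HFD replicate 1, at 58.3 CPM, and r with the mean of the 5 genes was 0.95. Srgn, the proteoglycan on which granule proteases are packed, had 44.5 to 98.5 CPM in HFD and 46.7 to 75.4 CPM in CF (log2 fold change 0.22, edgeR, adjusted p = 0.90). The lowest p of the list belonged to Man2b1, which encodes a lysosomal mannosidase (-0.22 on the log2 scale, edgeR, adjusted p = 0.73).

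Of 9 tested protease inhibitors, a list that held serpins and Slpi but also the cysteine protease inhibitors Cst3 and Cstb and the metalloproteinase inhibitor Timp2, 5 had fitted changes above 0, 4 below, and 0 were called (median 0.045). Serpinb1a, an intracellular inhibitor of elastase, cathepsin G and proteinase 3, had 117 CPM in HFD replicate 1 and 37.9 to 49.5 CPM in the other 7 libraries (log2 fold change 0.41, edgeR, adjusted p = 0.85). Serpinb6a, which inhibits cathepsin G, had 1.60 to 6.39 CPM (log2 fold change 0.45, edgeR, adjusted p = 0.82). Cst3, which DCs express strongly, did not follow the 5 genes and had its lowest level, 102 CPM, in HFD replicate 1 (log2 fold change -0.46, edgeR, adjusted p = 0.64).

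Among 20 regulators of promyelocyte gene expression, 12 had fitted changes above 0, 8 below, and 0 were called (median 0.035). HFD replicate 1 was the highest library for 10 of 20, beside 26.5% of all genes tested. Of the 20, r with the mean of the 5 genes was above 0 for 12 and below 0 for 8. Cebpe, the factor of the step from promyelocyte to myelocyte, had 30.6 CPM in HFD replicate 1 and 1.55 to 9.41 CPM in the other 7 (log2 fold change 0.39, edgeR, adjusted p = 0.96). Its r with the mean of the 5 genes was 0.97. Gfi1, a repressor needed for neutrophil development, had 16.8 CPM in HFD replicate 1 and 3.13 to 7.49 CPM elsewhere (log2 fold change 0.40, edgeR, adjusted p = 0.91). Cebpa, which opens the granulocyte-monocyte programme, ranged less, from 10.5 to 24.4 CPM (log2 fold change -0.37, edgeR, adjusted p = 0.80). Irf8, the factor that favours DCs and monocytes over granulocytes, was among those that ran the other way, with 251 CPM in HFD replicate 1, 372 to 674 CPM in the other 7 and r = -0.89 (log2 fold change 0.34, edgeR, adjusted p = 0.83). Of the ETS factors of the list, Spi1, which encodes PU.1, had r = 0.87 and Ets1 had r = 0.50. Elf1, also an ETS factor, and Myb, a factor of early progenitors, had r = -0.95 and r = -0.83. Elf1 and Myb were picked for their r after the values were seen. Flt3, the receptor by which CDPs were gated, likewise had r = -0.87, whereas the sort markers Csf1r, Ly6a and Kit had r = 0.35, 0.079 and 0.030. Id2 and Ikzf1 were the 2 of 20 regulators with an unadjusted p below 0.05, as were 8.56% of all genes tested. Id2, an inhibitor of E proteins, was at -0.45 and Ikzf1, which encodes Ikaros, at 0.27 on the log2 scale (edgeR, adjusted p = 0.42 and 0.55).

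Of 20 other genes of granulocyte-monocyte progenitors and promyelocytes, 15 had fitted changes above 0 and 0 were called (median 0.13). HFD replicate 1 was the highest library for 15 of 20. The lowest p belonged to Clec12a and Tspan13 (0.30 and 0.34 on the log2 scale, edgeR, adjusted p = 0.72 and 0.74). Of the 18 late neutrophil genes, 16 had fitted changes above 0 and 0 were called (median 0.38). On the log2 scale their mean was lower in HFD, at 5.77 ± 1.99, than in CF, at 6.39 ± 0.82 (SD, n = 4), which differed by less than the SD of HFD, and only HFD replicate 1 was above the highest CF library. Among them Camp, which encodes the cathelicidin of secondary granules, and Chil3 had the lowest p (0.65 and 0.82 on the log2 scale, edgeR, adjusted p = 0.93 and 0.91).

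Marker lists of other cells of the BM were read beside these values. The sort removed cells stained by a lineage cocktail, and red cells had been lysed. The summed monocyte list (14 genes, 5 above 0) had 326 to 807 CPM in HFD and 605 to 966 CPM in CF. The eosinophil list (7 genes, 5 above 0) summed to 2.21 to 70.4 CPM in HFD and 3.23 to 28.5 CPM in CF, and its defining genes Ccr3 and Il5ra were not among the genes of the table. The mast cell and basophil list (7 genes, 5 above 0) summed to 14.9 to 176 CPM in HFD and 39.2 to 109 CPM in CF, and Mcpt4, Cma1, Tpsb2 and Tpsab1, genes of mast cell granules, were not among the genes of the table. The erythroid list (10 genes, 10 above 0) summed to 104 to 653 CPM in HFD, highest in replicate 1, and to 102 to 164 CPM in CF. The DC list (14 genes, 6 above 0) was lowest in HFD replicate 1, with 381 CPM, and reached 801 CPM in HFD and 1294 CPM in CF. The B cell list (9 genes, 8 above 0) had 51.9 to 118 CPM in HFD and 52.8 to 84.4 CPM in CF, and the T and NK cell list (8 genes, of which 6 were tested and 4 were above 0) had 20.6 to 38.3 CPM in HFD and 23.7 to 32.2 CPM in CF. Nkg7 is in both that list and the list of granulocyte-monocyte progenitors and promyelocytes. In each of these lists 0 genes were called by edgeR, with an unadjusted p below 0.05 for 0 monocyte, 0 eosinophil, 0 mast cell and basophil, 1 erythroid, 6 DC, 5 B cell and 1 T and NK cell genes. Beside these stand 8.56% of all genes tested. Some lists other than that of late neutrophils also followed the 5 genes. Over 8 libraries, r of the mean log2 CPM of the list with that of the 5 genes was 0.94 for mast cells and basophils, 0.90 for monocytes, 0.88 for eosinophils and 0.75 for erythroid cells, and after the mean of each diet was subtracted it was 0.94 for erythroid cells. It was 0.42 for T and NK cells, 0.18 for B cells and -0.76 for DCs. HFD replicate 1 was the highest library for 6 of 7 mast cell and basophil, 7 of 7 eosinophil, 10 of 10 erythroid and 6 of 14 monocyte genes. It was the highest for 3 of 9 B cell, 2 of 6 T and NK cell and 0 of 14 DC genes, beside 26.5% of all genes tested. The part of these cells in the levels of the 5 genes was not tested.

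The genes whose pattern was most like the mean log2 CPM of the 5 were sought among 7354 other tested genes with at least 10 CPM on average. The median r of these genes was -0.034, and 190 had an r of at least 0.95. Gstm1, a glutathione transferase, came first with r = 0.997 and ran from 7.60 CPM in HFD replicate 4 to 38.7 CPM in HFD replicate 1. Bach1 (r = 0.991), a haem-binding repressor of oxidative stress genes, and Gsr (r = 0.988), glutathione reductase, followed. The other 7 of the first 10 were Myo1f, Cd63, Ly6g, App, Samd9l, Stx11 and Igsf6, with r between 0.985 and 0.987. Cd63, a tetraspanin of the primary granule membrane, ran from 2.86 to 40.4 CPM, and Ly6g, the neutrophil surface marker, from 2.23 to 40.2 CPM. After the mean of each diet was subtracted, r of the 10 genes was 0.984 to 0.998, and none of the 10 was called between the diets. Of single genes outside the 5, App was most like Mpo (r = 0.984), and Gstm1 most like Elane (r = 0.994) and Ms4a3 (r = 0.997). Sema4a was most like Prtn3 (r = 0.986) and Smcr8 most like Ctsg (r = 0.995). Within the 5, Mpo had r = 0.988 with Elane. Smcr8 moved much less than Ctsg, from 37.2 to 51.6 CPM.

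The nearest genes of the count table on the chromosome were also read. Mcpt8, a basophil protease gene 14607 bases from Ctsg, had 9.84 ± 6.59 CPM in HFD and 9.79 ± 4.36 CPM in CF (SD, n = 4). Ms4a2, which encodes a chain of the IgE receptor and lies 5776 bases from Ms4a3, had 2.23 ± 1.96 CPM in HFD and 2.13 ± 1.52 CPM in CF. Neither was called, and neither were the other nearest genes of the count table, which skip annotated genes absent from it. These were Tspoap1 and Mks1 for Mpo, Ptbp1 for Prtn3, Med16 for Elane, Rnf17, which lies 300006 bases from Ctsg, and Mrpl16, which lies 129539 bases from Ms4a3 (edgeR, adjusted p between 0.86 and 1.0). Of the overlapping genes, Plppr3 was at -0.37 on the log2 scale (edgeR, adjusted p = 0.62) and was not called, nor was Gm11505.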

How the data were processed

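Per the labels and the study's methods, total RNA of CDPs was amplified with the NuGen Ovation Solo RNA-Seq System and sequenced in pairs of 75 bp reads. According to the submitters' processing notes, FastQC, cutadapt, HISAT2 and StringTie were used on GRCm38, with versions not given in the sources used here. The authors deposited raw counts of uniquely mapped pairs per gene, not normalized, and columns were matched to libraries by sample number. Amplified reads are not independent molecules, so counting errors cover counting alone.

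The 5 genes and all lists were chosen with earlier results of these data known. Names and coordinates came from GENCODE vM21, in which 16067 of 16119 identifiers were found. Counts were fitted in R 4.3.3 with edgeR 4.0.16 (filterByExpr, TMM, robust quasi-likelihood F test, diet as the only term), with Benjamini-Hochberg adjustment over all 15837 genes tested and a threshold of 0.05. TMM factors were 0.80 to 1.18, and log2 CPM used a prior count of 2. Genes named were the 5, their chromosomal neighbours and overlapping genes, the 2 of lowest p in a list, the sort markers, the 10 most like the mean of the 5, the 1 most like each, and S100a8, Ngp, Ctsc, Srgn, Cebpa, Cebpe, Gfi1, Irf8 and Serpinb1a. Elf1, Myb, Spi1, Ets1 and Nkg7 and the inhibitors Slpi, Cstb and Timp2 were named after their values were seen, as were marker genes absent from the table. Of the 2 of lowest p, those of the lists of other cells are given as list counts only, and 1 other gene is not reported here. Alternative tests were DESeq2 1.42.0, voom of limma 3.58.1 (also weighted by sample quality) and a linear model on log2(CPM + 1). Alternative settings were scaling by RLE or by library size, keeping all genes or those with 1 CPM in 4 libraries, protein-coding genes alone, the replicate block, each library left out, both replicates numbered 1 left out and the late neutrophil covariate. The fit was tested on simulated data. Motifs were searched and figures drawn in Python 3.11.15 with matplotlib 3.10.9. Protein sequences were not used here.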

Additional observations from a re-analysis of the deposited data

Results flagged for a closer look

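Of 26 groups of 4 libraries examined, 1 held a library far from the others, where chance alone would give about 1 in 20. It was CF replicate 1, whose mean log2 CPM of the 18 late neutrophil genes was 5.16, while the other CF libraries had 6.77 to 6.81. In the same library each of the 5 primary granule genes had its lowest CF level. None of the 5 genes had a library of either diet past the same limit.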

How the results depend on the processing

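No primary granule gene was called with 8 libraries or under any of 20 alternatives, of which 7 called 0 and 2 called 1 or 2 of all genes tested, and the other 11 called 67 to 667. Prtn3 was below 0 in all 20, between -0.96 and -0.031. Mpo was below 0 in 18. With each library left out in turn, log2 fold changes ranged from -0.89 to 0.017 for Mpo, -1.26 to 0.49 for Elane, -0.77 to -0.031 for Prtn3, -0.65 to 0.21 for Ctsg and -1.11 to 0.67 for Ms4a3. Mpo was just above 0 without HFD replicate 3 (0.017) or 4 (0.012), Elane was -0.096 without CF replicate 1, and Ctsg was -0.059 without CF replicate 1 and -0.058 without CF replicate 4. Elane, Ctsg and Ms4a3 turned to -0.54, -0.21 and -0.47 with limma voom, to -1.27, -0.59 and -1.16 with sample quality weights, and to -0.50, -0.19 and -0.29 with the linear model. With both replicates numbered 1 left out they were -1.52, -0.73 and -1.34, and Ctsg was -0.019 with protein-coding genes alone. Scaling by library size alone moved the median of all genes from 0.055 to 0.25. The cause of these turns was not tested.

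With the replicate block, Elane, Ctsg and Ms4a3 were -0.80, -0.23 and -0.60, and calls over all genes went from 67 to 0. Libraries of the same number did not deviate together (r from -0.44 to -0.078, and 0 of 4 HFD libraries correlated best with their own number), so the numbers were not taken as pairs. The difference in the log2 ratio of the 5 genes to late neutrophil genes, 0.21, ranged from -0.053 (without HFD replicate 4) to 0.61 (without HFD replicate 1) with each library left out, and was 0.80 with both replicates numbered 1 left out. With 4 libraries per diet, the 95% intervals of Elane and Ms4a3 reached 4.26-fold and 4.77-fold higher in HFD.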
